A study of Mus musculus with 2 samples.

Results

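Within the CD8+ T cells of B16 melanoma tumors, 106 cells carried transcripts of both Pdcd1, which encodes the inhibitory receptor PD-1, and Tcf7, which encodes the transcription factor TCF-1, and no transcript of Havcr2, which encodes the inhibitory receptor TIM-3. These Pdcd1+Tcf7+ cells were chosen by their measured counts of unique molecular identifiers (UMIs, each standing for 1 captured RNA molecule). A cell was a CD8+ T cell if its Cd8a and Cd8b1 UMIs together exceeded its Cd4 and Foxp3 UMIs and it had at least 1 UMI of Cd3d, Cd3e or Cd3g. A Pdcd1+Tcf7+ cell also had at least 1 UMI of Pdcd1, at least 1 of Tcf7 and 0 of Havcr2. They made up 106 of 1510 CD8+ T cells, which in turn came from 9844 barcodes kept of 14035 deposited. The other classes were 445 Pdcd1+Tcf7- cells, of which 223 lacked and 222 had a Havcr2 UMI, 346 Pdcd1-Tcf7+ cells without a Havcr2 UMI, and 32 cells with UMIs of Pdcd1, Tcf7 and Havcr2.

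The cells were T cells sorted on TCR-β from tumors of the mouse melanoma line B16 and of B16 made to express the cytokine IL-33 (B16–IL-33), taken on day 9 after inoculation. They were marked with hashtag antibodies and pooled, and transcripts, hashtags and T cell receptors (TCRs) of this 1 pool were read in separate libraries. The only treatment in the labels is the tumor line, and the age of the mice and the number pooled are not given for this pool in the sources used here. Every class below is therefore part of 1 sample, the spread between animals was not measured, and ratios and shares are given with 95% intervals that cover counting error only.

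In tumors and chronic infection, CD8+ T cells that keep seeing antigen enter a state known as exhaustion. TCF-1 marks the exhausted cells that still renew themselves, often called progenitor or stem-like cells, while cells that have lost TCF-1 and gained TIM-3 are more differentiated, produce more granzyme and do not return to the progenitor state. TCF-1 is also high in naive and memory T cells, so PD-1 is used to tell progenitor exhausted cells from these. SLAMF6, ID3, XCL1 and CXCR5 are other markers of the progenitor state.

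The label CD8+ T cell was checked against its marker genes, most of which the rule itself used. In the 106 Pdcd1+Tcf7+ cells, the coreceptor gene Cd8a was at 437 CPM (the UMIs of a gene summed over the class, divided by all UMIs of the class and multiplied by 1e6) with a UMI in 83.0% of cells, and Cd8b1 was at 752 CPM. The CD3 chain Cd3e was at 864 CPM. Trac, the constant gene of the TCR alpha chain, which the rule did not use and which CD4+ T cells express as well, was at 304 CPM with a UMI in 73.6% of cells. For background, 286 cells without a CD3 UMI and with at least 5 UMIs of myeloid genes, at a median of 6219.5 UMIs, held Tcf7 in 4.196% (2.19 to 7.21%) and Pdcd1 in 0.350% (0.00885 to 1.93%). The class rests on few molecules: 60 of the 106 cells had exactly 1 Pdcd1 UMI, and 49 had exactly 1 Tcf7 UMI. The lowest values inside the limits were thus 1 UMI of either gene, and the 32 cells just outside the Havcr2 limit are described with the levels below.

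Pdcd1+Tcf7+ cells ranged from 950 to 35021 UMIs with a median of 6106.5, and 27 of them exceeded the 2500 detected genes that the study used as an upper limit. Pdcd1+Tcf7- cells were deeper, at a median of 7794 UMIs, and Pdcd1-Tcf7+ cells were shallower, at 3480. Each Pdcd1+Tcf7+ cell was therefore paired with the nearest free cell within 10% of its UMIs. All 106 found a Pdcd1+Tcf7- partner, with medians of 6106.5 and 6102.5 UMIs, and 49 of these partners had a Havcr2 UMI. Only 88 found a Pdcd1-Tcf7+ partner, with medians of 5329 and 5327.5, and the 18 left over all had at least 9929 UMIs.

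Signs of 2 cells under 1 barcode were present in every class. Of 94 Pdcd1+Tcf7+ cells with a productive TCR beta chain, 19 had at least 2 such chains, 20.2% (12.6 to 29.8%), against 8.89% (3.92 to 16.8%) of the Pdcd1+Tcf7- partners, with intervals that overlapped. It was the case for 13 of 65 Pdcd1-Tcf7+ partners and for 40.7% (22.4 to 61.2%) of the cells with UMIs of all 3 genes. A Cd4 or Foxp3 UMI was present in 18.9% of Pdcd1+Tcf7+ cells and in 14.2% of the Pdcd1+Tcf7- partners. At least 3 UMIs of 6 myeloid genes were present in 4.72% and 6.60%. The part of such barcodes in the results below was not tested, and ratios without them are given for some of the genes that they moved.

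How often both genes of the rule were found together is given as a description of the selection. Among all CD8+ T cells, Pdcd1 UMIs were present in 138 of 501 Tcf7+ cells, 27.5% (23.7 to 31.7%), and in 445 of 1009 Tcf7- cells, 44.1% (41.0 to 47.2%). With each cell thinned to 1500 UMIs the shares were 12.0% (8.28 to 16.8%) of 249 cells and 19.0% (16.8 to 21.4%) of 1167.

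The first comparison asked how Pdcd1+Tcf7+ cells differed from depth-matched Pdcd1+Tcf7- cells. A gene is called higher or lower here if its CPM ratio was at least 1.5 or at most 1/1.5, among genes with at least 40 UMIs over both groups and UMIs in at least 10 cells. Of 4289 such genes, 417 (9.72%) were higher and 367 (8.56%) were lower, and the median ratio was 0.999. The interval excluded 1 for 293 of the higher and 255 of the lower genes. When the partners were limited to cells without a Havcr2 UMI, 385 genes were higher and 307 lower, and 234 of the former and 178 of the latter were the same genes as before. Of 72 named genes past the fold, 70 kept their direction there and 57 were still past it.

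Genes of quiescence and lymphoid homing were higher in Pdcd1+Tcf7+ cells. Of the 12 listed, 10 passed the filter, 9 were higher and 0 were lower, with a median ratio of 3.15. Ccr7, the receptor that guides T cells to lymph nodes, had 80 UMIs in 28 of 106 Pdcd1+Tcf7+ cells and 12 UMIs in 8 of the partners, a ratio of 6.65 (3.60 to 13.4). Most Pdcd1+Tcf7+ cells thus had no Ccr7 UMI at this depth, and the cells that did outnumbered those among the partners. The ratio was 3.08 (2.08 to 4.64) for Il7r, the receptor of the survival cytokine IL-7, 3.21 (1.87 to 5.80) for Lef1, the TCF-1 relative, and 3.99 (1.96 to 8.95) for S1pr1, the receptor for exit from tissue. Klf2, the transcription factor that drives S1pr1, was the most widely detected, with UMIs in 79 and 39 cells and a ratio of 2.19 (1.81 to 2.65). Satb1 was the listed gene past the filter that was not called, at 1.42 (1.04 to 1.93), and it was at 2.25 without cells with a Cd4 or Foxp3 UMI. Against partners without a Havcr2 UMI the ratio was 3.29 for Ccr7 and 1.85 for Lef1, both smaller than before, and 3.44 for Il7r. Over all alternative settings Ccr7 ran from 3.29 to 9.41 and Klf2 from 1.72 to 3.72.

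Of 10 markers of the progenitor state, 3 passed the filter and 2 of them were higher, Slamf6 and Id3. Slamf6, the surface receptor used to sort these cells, had 90 UMIs in 49 cells against 15 UMIs in 13 partners, a ratio of 5.98 (3.44 to 11.1). Id3, the inhibitor of E proteins that sustains memory precursors, had 83 UMIs in 24 cells and 4 UMIs in 2 partners, a ratio of 20.7 (7.79 to 77.7). Xcl1, the chemokine that attracts cross-presenting dendritic cells, did not follow them, at a ratio of 0.902 (0.720 to 1.13), although its UMIs were found in 35 cells against 15. It was at 0.568 without cells with a Cd4 or Foxp3 UMI. Over all alternative settings Xcl1 ran from 0.288 to 1.45, so that its direction is not settled here. Under the filter, Tnfsf8 had 32 UMIs against 5, Kit 19 against 7, Cd83 15 against 3, and Cxcr5, the follicle-homing receptor, 4 against 0. Among Pdcd1+Tcf7- cells, Slamf6 was thus detected in few cells and Id3 in almost none. With partners that lacked Havcr2 the ratios were 3.29 for Slamf6 and 13.7 for Id3, and over all alternative settings they ran from 3.29 to 6.997 and from 6.22 to 75.6. After thinning to 1500 UMIs, Slamf6 was detected in 20.95% (13.6 to 29.99%) of 105 Pdcd1+Tcf7+ cells, 3.65% (2.10 to 5.86%) of 438 Pdcd1+Tcf7- cells and 1.61% (0.441 to 4.08%) of the myeloid background cells. Before thinning it was in 46.2% of Pdcd1+Tcf7+ and 15.3% of Pdcd1+Tcf7- cells. At the thinned depth Id3 was in 7.62% (3.35 to 14.5%) of Pdcd1+Tcf7+ cells and 3.63% (1.67 to 6.78%) of the myeloid background cells, with intervals that overlapped. They also overlapped for Ccr7, at 10.5% (5.35 to 17.97%) and 4.03% (1.95 to 7.29%), and for Il7r, at 19.0% (12.0 to 27.9%) and 13.7% (9.68 to 18.6%). In Pdcd1+Tcf7- cells the thinned shares of Id3, Ccr7 and Il7r were 0.228% (0.00578 to 1.27%), 2.51% (1.26 to 4.45%) and 4.79% (2.99 to 7.24%). Their intervals did not meet those of Pdcd1+Tcf7+ cells. For Id3 and Il7r they also lay below those of the myeloid cells, so that the myeloid shares of these genes are not a floor for T cells. Whether the myeloid cells expressed these genes themselves was not tested.

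Cytotoxic and effector molecules were lower. Of the 16 listed genes, 13 passed the filter, 0 were higher and 10 were lower, with a median ratio of 0.455. Gzmb, the main granzyme of killer cells, had 344 UMIs in 47 Pdcd1+Tcf7+ cells and 2779 UMIs in 92 partners, a ratio of 0.123 (0.110 to 0.138). Prf1, the pore-forming protein perforin, had 34 UMIs in 23 cells and 454 in 68, a ratio of 0.0747 (0.0511 to 0.106). Gzmc, a granzyme of strongly activated cells, had 19 UMIs in 9 cells and 808 in 33, a ratio of 0.0235 (0.0140 to 0.0369). Both the number of cells with these transcripts and the UMIs in them were smaller among Pdcd1+Tcf7+ cells. The related Gzmf had 0 UMIs against 95 in 9 partners, which makes it at least 31.7-fold lower in Pdcd1+Tcf7+ cells with a floor of 3 counts in the group. The chemokine genes Ccl3, at 0.0801 (0.0615 to 0.103), and Ccl4, at 0.0898 (0.0773 to 0.104), and the cytokine gene Ifng, at 0.259 (0.209 to 0.320), were lower as well. Without cells with a Cd4 or Foxp3 UMI they were at 0.0306, 0.0361 and 0.143. After thinning to 1500 UMIs, Ccl4 was in 16.2% (9.72 to 24.7%) of Pdcd1+Tcf7+ cells and in 44.98% (40.3 to 49.8%) of Pdcd1+Tcf7- cells. The myeloid background cells held Ccl4 in 21.8% (16.8 to 27.4%), but Gzmb in 4.03% and Ifng in 0.403%. Whether they expressed Ccl4 themselves was not tested, so their share is not read as a floor for T cells. Gzmk at 0.790 (0.627 to 0.994), Ccl5 at 0.859 (0.819 to 0.900) and Klrd1 at 0.942 (0.785 to 1.13) were not called, so Gzmk was not among the granzymes called lower. With partners that lacked Havcr2 the ratios were 0.275 for Gzmb, 0.196 for Prf1 and 0.103 for Gzmc, so that these genes were still lower but by less. Over all alternative settings Gzmb ran from 0.0638 to 0.275.

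Inhibitory receptors differed in both directions. Of 10 listed genes other than Pdcd1 and Havcr2, 6 passed the filter, 1 was higher and 4 were lower, with a median ratio of 0.613. Cd160, which encodes a receptor for HVEM, was the higher one, with 106 UMIs in 45 cells against 35 in 21 and a ratio of 3.02 (2.04 to 4.56). Lag3, which binds MHC class II, had 119 UMIs in 40 cells and 212 in 73, a ratio of 0.560 (0.443 to 0.704). Ctla4, the competitor of CD28, was at 0.619 (0.495 to 0.771), Klrc1, the NKG2A chain, at 0.607 (0.469 to 0.782), and Entpd1, the ectonucleotidase CD39 of terminally exhausted cells, at 0.222 (0.0890 to 0.485). Tigit differed by less than the fold, at 1.22 (0.965 to 1.54). With partners that lacked Havcr2, Lag3 was at 0.695 and was no longer called.

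Of 15 transcription factors of exhaustion and effector cells, 13 passed the filter, and 2 were higher and 3 lower. Tox, the factor that fixes the exhausted state, did not differ by the fold, with 50 UMIs in 30 cells and 45 in 31, a ratio of 1.11 (0.726 to 1.70). Eomes, a T-box factor of memory and exhausted cells, was higher at 1.99 (1.33 to 3.05), and so was Ikzf2, the Ikaros family member Helios, at 2.02 (1.52 to 2.71). Prdm1, the effector factor Blimp-1, was lower at 0.324 (0.159 to 0.619), as were Id2, the counterpart of Id3 in effector cells, at 0.482 (0.423 to 0.548), and Bhlhe40 at 0.594 (0.495 to 0.712). Id2 and Id3 therefore differed in opposite directions.

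Receptors for costimulation, cytokines and chemokines split in the same comparison. Cd27, a TNF receptor family member of naive and memory cells, was the only one higher of 9 costimulatory receptors, at 1.75 (1.35 to 2.27), and Tnfrsf9, the activation-induced receptor 4-1BB, was the only one lower, at 0.406 (0.335 to 0.490). With partners that lacked Havcr2, Cd27 was at 1.27. Of 10 cytokine receptors past the filter, 0 were higher and 2 were lower, Il2ra, the high-affinity chain of the IL-2 receptor, at 0.185 (0.0989 to 0.323) and Il2rb, its signaling partner, at 0.629 (0.529 to 0.748). Il1rl1, the receptor of IL-33, stayed under the filter with 8 UMIs against 6. Of 12 chemokine receptors and residency genes past the filter, 4 were higher, led by the integrin chain Itgb1 at 3.39 (2.71 to 4.27), Cxcr3, the receptor for interferon-induced chemokines, at 2.62 (1.79 to 3.92) and the early activation marker Cd69 at 2.07 (1.69 to 2.55). The 4 lower ones included Cxcr6 at 0.422 (0.339 to 0.522), Ccr2 at 0.475 and the signaling regulator Rgs1 at 0.399 (0.332 to 0.479). Cxcr3 and Cxcr6, both chemokine receptors of T cells in tissue, thus differed in opposite directions.

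Among the remaining lists, 6 of 12 immediate early and TCR response genes were higher and 0 were lower, with a median ratio of 1.49. Fosb was at 2.05 (1.46 to 2.93), Fos at 1.71 (1.37 to 2.16) and Jun at 1.69 (1.40 to 2.06), all subunits of the factor AP-1. Stress, hypoxia and metallothionein genes were lower in 6 of 10, including the metal-binding Mt1 at 0.150 (0.117 to 0.190), and 0 were higher. Of 11 interferon response genes, 2 were higher and 1 was lower. Of 12 cell cycle genes, 0 were higher and 2 were lower, Cdk1 at 0.603 and Mcm5 at 0.547. Over the alternative settings Cdk1 ran from 0.133 to 1.25, the latter with matching on detected genes, so that its direction is not settled here. Of Pdcd1+Tcf7+ cells, 37.7% (28.5 to 47.7%) had at least 3 UMIs of cell cycle genes against 48.1% (38.3 to 58.0%) of partners. The intervals of these shares overlapped, so that a difference in cycling cells was not resolved. Of the Ly49 and NK receptors, 0 of 2 past the filter were called.

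The 10 highest ratios included Cd7, a T cell surface protein, with 133 UMIs in 36 cells against 19 in 12 and a ratio of 6.98 (4.30 to 12.0) that was 3.04 without cells with a Cd4 or Foxp3 UMI. Dapl1, a gene of naive and memory CD8+ T cells that is also on the quiescence list, had 94 UMIs in 22 cells, of which 24 came from 1 cell, and its 6 UMIs among partners all came from 1 cell, a ratio of 15.6 (6.92 to 43.7). Over the alternative settings that gave a value, Dapl1 ran from 5.15, with partners that lacked Havcr2, to 97.2, with matching on detected genes. Others of the 10 were Id3, Ccr7, Slamf6, Ramp3 at 8.98 (3.22 to 34.7), Asap1 at 7.78 (3.06 to 25.3), Lysmd2 and Selenop. The 10 lowest were Gzmc, AA467197 at 0.0507, Prf1, Ccl3, Ccl4, Spp1, AC163354.1, Gzmb, Mt2 and Mt1. Spp1, the secreted protein osteopontin, rested on 243 UMIs in 11 partners of which 1 cell gave 176. With partners that lacked Havcr2 its ratio was 0.987. The high end thus held 5 genes of the quiescence and progenitor lists, and the low end held 5 genes of the cytotoxic list and both metallothioneins.

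**Figure D1:**
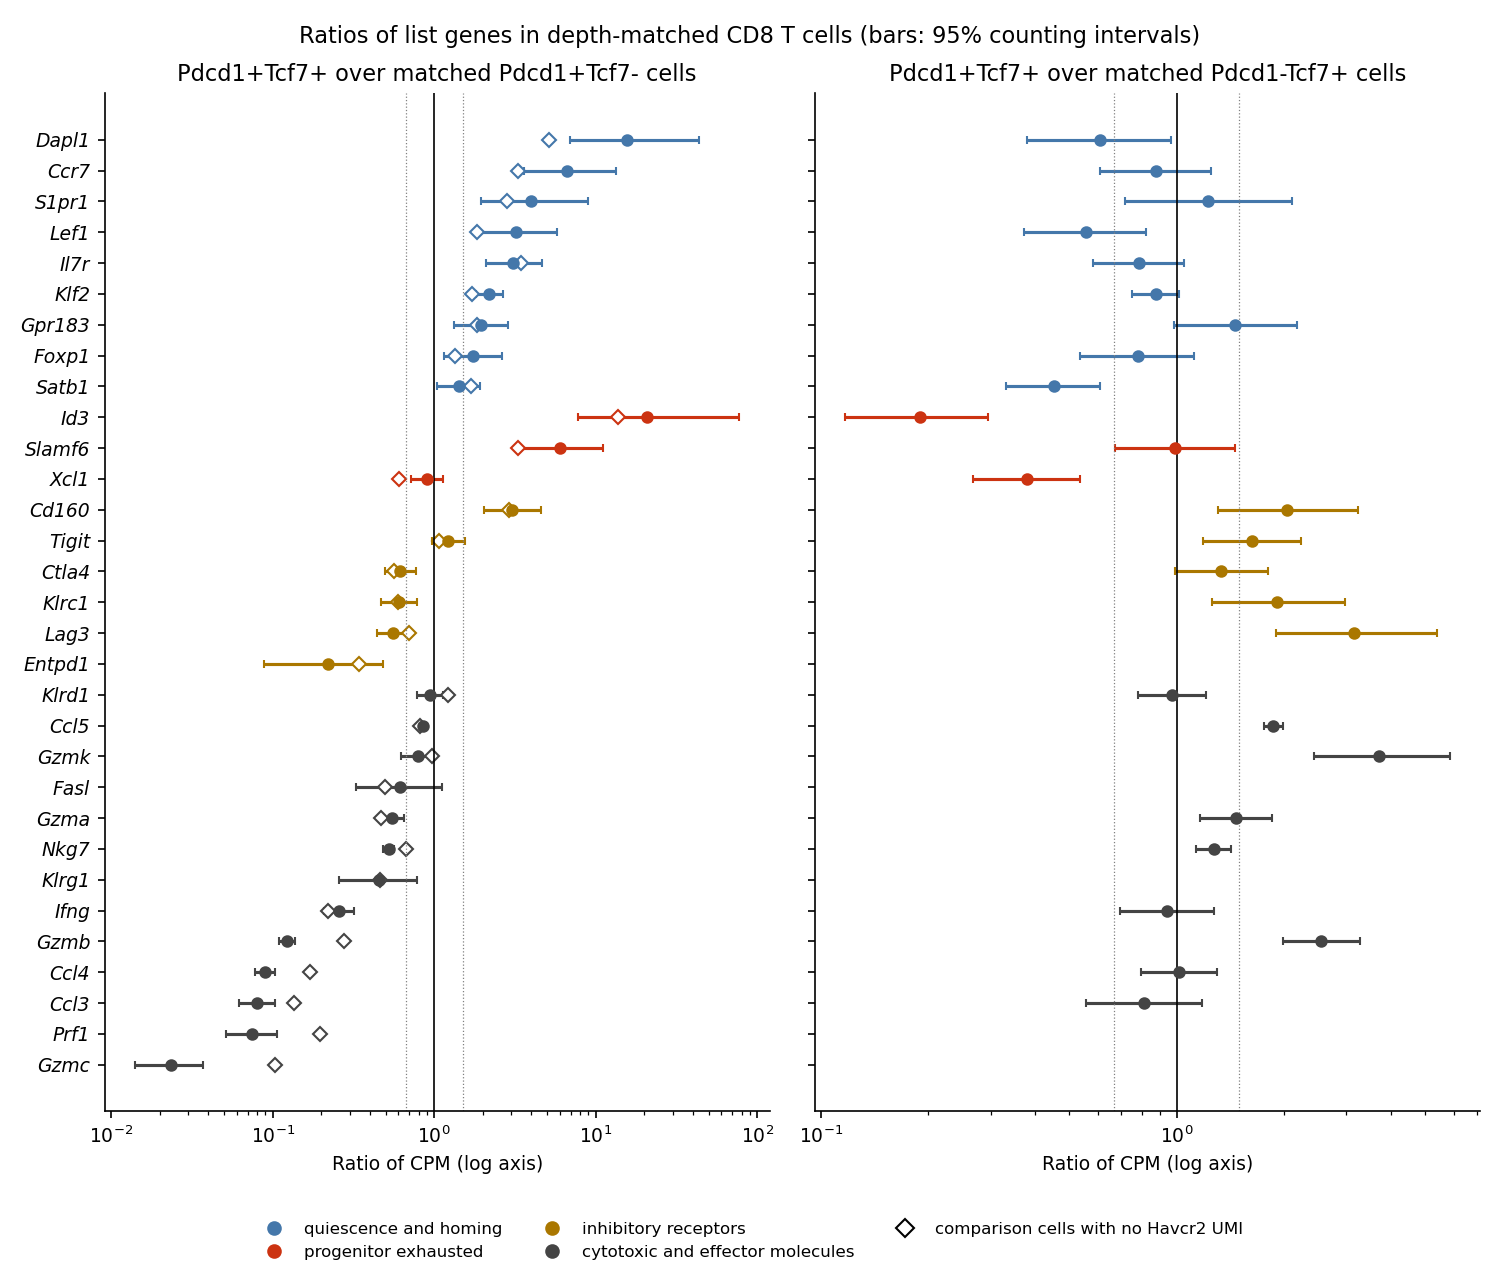
CPM ratios (log axes) of listed genes in 4 lists, Pdcd1+Tcf7+ over matched Pdcd1+Tcf7- cells at left and over matched Pdcd1-Tcf7+ cells at right. Filled points carry 95% counting intervals, open diamonds are ratios against partners with no Havcr2 UMI, dotted lines mark the 1.5-fold limits, and genes under the filter at right have no point. At left the quiescence genes sit to the right of 1 and Gzmb, Prf1 and Gzmc far to the left, whereas at right Satb1 and Id3 sit left of 1 and Lag3 and Gzmk right of it.

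The second comparison asked how Pdcd1+Tcf7+ cells differed from depth-matched Pdcd1-Tcf7+ cells, a class that can hold naive and memory cells. It uses 88 of the same Pdcd1+Tcf7+ cells, so that both comparisons share them. Of 2854 genes past the filter, 292 (10.2%) were higher and 152 (5.33%) were lower, with a median ratio of 1.06, and the interval excluded 1 for 180 and 68 of them. Inhibitory receptors were higher in Pdcd1+Tcf7+ cells. Of 5 past the filter 4 were higher and 0 lower, with a median of 1.91. Lag3 had 68 UMIs in 26 of 88 cells against 21 UMIs in 16 partners, a ratio of 3.15 (1.90 to 5.40). Cd160 was at 2.04 (1.31 to 3.23), Klrc1 at 1.91 (1.26 to 2.96) and Tigit at 1.62 (1.19 to 2.23). Ctla4 was not called, at 1.34 (0.992 to 1.80). Cd160 was thus higher in Pdcd1+Tcf7+ cells than in either partner class.

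Quiescence genes were mostly level with or below those of Pdcd1-Tcf7+ cells. Of 10 past the filter, 0 were higher and 4 were lower, with a median ratio of 0.780. Satb1, a chromatin organizer, was at 0.451 (0.332 to 0.609) and Lef1 at 0.557 (0.374 to 0.821). Ccr7, Il7r, Klf2 and S1pr1 were not called, at 0.873, 0.782, 0.873 and 1.22. Gpr183 had the highest ratio of the list, at 1.46, and was not called either. Over the alternative settings it ran from 0.885 to 2.08, so that its direction is not settled here. Dapl1 was lower too, at 0.609 (0.379 to 0.967), but it was at 1.27 without cells with at least 2 productive beta chains, 1.06 without cells with a Cd4 or Foxp3 UMI and 1.70 without depth matching, so that its direction is not settled here. Satb1 and Lef1 were thus past the fold and Ccr7 was not.

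Of 4 progenitor markers past the filter, 0 were higher and 2 were lower. Slamf6 was at 0.989 (0.672 to 1.46), with 57 UMIs in 36 cells against 56 in 29. Id3 was at 0.190 (0.117 to 0.295), with 24 UMIs in 14 cells against 123 in 30, and 0.476 without cells with at least 2 beta chains. Xcl1 was at 0.381 (0.268 to 0.534), although without depth matching it was at 1.08. Slamf6 and Id3, which both set Pdcd1+Tcf7+ cells apart from Pdcd1+Tcf7- cells, were thus unlike each other in this comparison. Of 9 cytotoxic genes past the filter, 3 were higher and 0 lower, Gzmk at 3.71 (2.43 to 5.85), Gzmb at 2.55 (1.99 to 3.28) and Ccl5 at 1.87 (1.76 to 1.99). Without depth matching Ccl5 was at 0.675, Gzmb at 1.48 and Gzmk at 1.94. Prf1 was under the filter with 21 UMIs against 16. Ccl4 was at 1.02 (0.794 to 1.30), Ifng at 0.939 and Ccl3 at 0.809, none of them called. Without cells with a Cd4 or Foxp3 UMI these 3 were past the lower fold, at 0.619, 0.503 and 0.391, while Gzmb was at 3.91. Without depth matching Ccl4 was at 0.371 and Ccl3 at 0.485.

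Of the transcription factors, 3 of 10 past the filter were higher and 2 lower, the former being Bhlhe40 at 2.53 (1.84 to 3.51), the orphan nuclear receptor Nr4a2 at 2.05 (1.42 to 2.99) and Id2 at 1.54 (1.26 to 1.90). Nfatc1, a factor activated by calcium, was lower at 0.498 (0.275 to 0.875), and so was Nr4a3 at 0.622 (0.310 to 1.21), an interval that spans 1. Nr4a3 was at 1.02 without depth matching and at 0.969 without cells with a Cd4 or Foxp3 UMI, so that its direction is not settled here. Without depth matching Id2 was at 1.10, no longer past the fold. Tox stayed under the filter with 26 UMIs against 13. Costimulatory receptors were higher in 2 of 8, Tnfrsf9 at 1.83 (1.31 to 2.60), which was at 1.29 with matching on detected genes, and Tnfrsf18, which encodes GITR, at 1.72 (1.29 to 2.30). Cytokine receptors were higher in 2 of 9, Il10ra, the IL-10 receptor chain, at 3.35 (1.95 to 6.01) and Il18rap at 2.24 (1.13 to 4.68), and lower in 1, Il27ra at 0.514. Chemokine receptors were higher in 3 of 12, Cxcr6 at 1.78 (1.25 to 2.58), Cxcr3 at 1.61 (1.09 to 2.40) and Ccr2 at 1.60 (1.03 to 2.53), the last of which was at 0.979 without depth matching. Tnfrsf9, Cxcr6, Id2 and Bhlhe40 were therefore lower than in Pdcd1+Tcf7- cells and higher than in Pdcd1-Tcf7+ cells.

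Ly49 receptors, inhibitory lectins of NK cells and of some CD8+ T cells, gave few UMIs in Pdcd1+Tcf7+ cells. Klra7 had 7 UMIs in 5 cells against 60 in 19 partners, a ratio of 0.113 (0.0437 to 0.248). Klre1 was lower as well, at 0.624, but its interval did not exclude 1 and it was at 1.02 with at least 2 Tcf7 UMIs. The activating receptor Klrk1 was higher at 1.83. In the wider classes Klra7 was at 92.1 CPM (76.9 to 109) in Pdcd1-Tcf7+ cells, 11.9 CPM (5.72 to 22.0) in Pdcd1+Tcf7+ cells and 0.673 CPM (0.0170 to 3.75) in Pdcd1+Tcf7- cells without Havcr2. Of the other lists, 0 of 12 immediate early genes were higher and 2 were lower, Fos at 0.498 (0.409 to 0.604) and Myc at 0.618, whose interval did not exclude 1. Of 10 interferon genes 2 were higher and 1 lower, and the interval excluded 1 for 1 of the higher genes and not for the lower one. Of 6 cell cycle genes 0 were higher and 1 lower, and of 7 stress genes 2 were higher and 2 lower. At least 3 cell cycle UMIs were present in 27.3% (18.3 to 37.8%) of the 88 cells and 29.5% (20.3 to 40.2%) of their partners. Over the whole classes, which were not depth matched, the shares were 37.7% (28.5 to 47.7%) and 12.7% (9.39 to 16.7%). The cell cycle list then summed to 1398 CPM in Pdcd1+Tcf7+ and 450 CPM in Pdcd1-Tcf7+ cells. The matched cells thus do not stand for the whole classes in cycling, and the part of depth was not tested. Both higher interferon genes, Ifit3 and Ifit1, were below 1 without depth matching, at 0.830 and 0.756.

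The 10 highest ratios against Pdcd1-Tcf7+ cells were those of Nrgn, Rgs16, Ccl6, Wfdc17, Fabp5, Gna15, Suds3, Gzmk, Tff1 and Il10ra. Rgs16, a regulator of G protein signaling, had 69 UMIs in 27 cells against 9 in 9 partners, a ratio of 7.45 (3.70 to 17.0). Ccl6, a chemokine of myeloid cells, rested on 75 UMIs in 7 cells, 39 of them in 1 cell, and without cells that held 3 or more myeloid UMIs its ratio was 0.557. The 10 lowest included Klra7, Id3, Cd74, Gar1, Gnl3, Apex1, Fam168b, Foxo1 and Esf1. Foxo1, the factor that maintains Klf2 and Il7r, was spread over cells with 19 UMIs in 19 cells against 50 in 40, a ratio of 0.369 (0.206 to 0.637). Cd74, the invariant chain of MHC class II, came instead from 343 UMIs in 10 partners with 264 in 1 cell, and its ratio was 3.51 without cells with myeloid UMIs.

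Markers of other cells were measured beside these comparisons. The 11 myeloid genes summed to 758 CPM in Pdcd1+Tcf7+ cells and 914 CPM in their Pdcd1+Tcf7- partners, with a range over cells of 0 to 12131 and 0 to 25210 CPM and with 0 of the genes at 0 in either group. In the second comparison they summed to 704 CPM in the 88 Pdcd1+Tcf7+ cells, where Csf1r was at 0, and 1871 CPM in the partners, of which 1 cell gave 55.4%. Of 8 myeloid genes past the filter in the first comparison, Cd74 was higher at 1.64, and Apoe at 0.210 and Lyz2 at 0.413 were lower. Each of them turned in an alternative setting, Apoe to 2.99 and Lyz2 to 1.995 without cells with myeloid UMIs and Cd74 to 0.654 with partners that lacked Havcr2. Of 4 in the second comparison, 0 were higher and 1 was lower. The 4 regulatory and CD4 T cell genes not used by the rule summed to 199 CPM against 343 CPM in the first comparison and 259 CPM against 202 CPM in the second, with 0 higher and 2 lower of 2 past the filter in the first comparison and 0 of 1 called in the second. The B cell list summed to 147 CPM against 44.3 CPM, and here Ighm gave 109 and 31 UMIs, while Ms4a1 was at 0 in both groups and Cd79a was at 0 in Pdcd1+Tcf7+ cells. In the second comparison it summed to 143 CPM against 198 CPM. Melanoma genes gave 1 UMI against 4. The part of such RNA in the ratios was not tested, and without cells that held myeloid UMIs the ratio against Pdcd1+Tcf7- cells was 5.91 for Slamf6 and 0.130 for Gzmb.

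Over the 5 classes, levels of Slamf6, Id3 and Gzmb followed different orders. Slamf6 was at 90.7 CPM (75.6 to 108) in Pdcd1-Tcf7+ cells, 107 (86.4 to 132) in Pdcd1+Tcf7+ cells, 53.4 (33.5 to 80.8) in cells with all 3 transcripts, 39.0 (29.6 to 50.5) in Pdcd1+Tcf7- cells without and 10.2 (6.80 to 14.6) in those with a Havcr2 UMI. The first 2 of these did not differ beyond their intervals, and neither did cells with all 3 transcripts and Pdcd1+Tcf7- cells without Havcr2. Id3 was highest in Pdcd1-Tcf7+ cells at 205 CPM (182 to 230), followed by Pdcd1+Tcf7+ cells at 99.1 (78.9 to 123), and it was at 17.0 (6.83 to 35.0), 5.38 (2.32 to 10.6) and 1.75 (0.569 to 4.09) in the remaining classes in the same order. Gzmb was at 278 CPM (251 to 307) in Pdcd1-Tcf7+ cells and 411 (368 to 456) in Pdcd1+Tcf7+ cells, and it was at 1558 (1439 to 1683) in cells with all 3 transcripts, 1475 (1414 to 1538) and 3068 (3004 to 3133). The intervals of Gzmb thus overlapped between cells with all 3 transcripts and Pdcd1+Tcf7- cells without Havcr2. Gzmb does not stand for the whole cytotoxic and effector list. That list summed to 9007 CPM (8851 to 9165) in Pdcd1-Tcf7+ cells and 6805 (6629 to 6984) in Pdcd1+Tcf7+ cells, of which Ccl5 gave 5780 and 3903. Of the 32 cells with all 3 transcripts, 18.8% had at least 3 myeloid UMIs and 34.4% a Cd4 or Foxp3 UMI, against 4.72% and 18.9% of Pdcd1+Tcf7+ cells, and the myeloid list summed to 2072 CPM against 758. The part of these in the level of Gzmb was not tested. These classes were not depth matched, and the cells with all 3 transcripts had a median of 11039 UMIs.

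**Figure D2:**
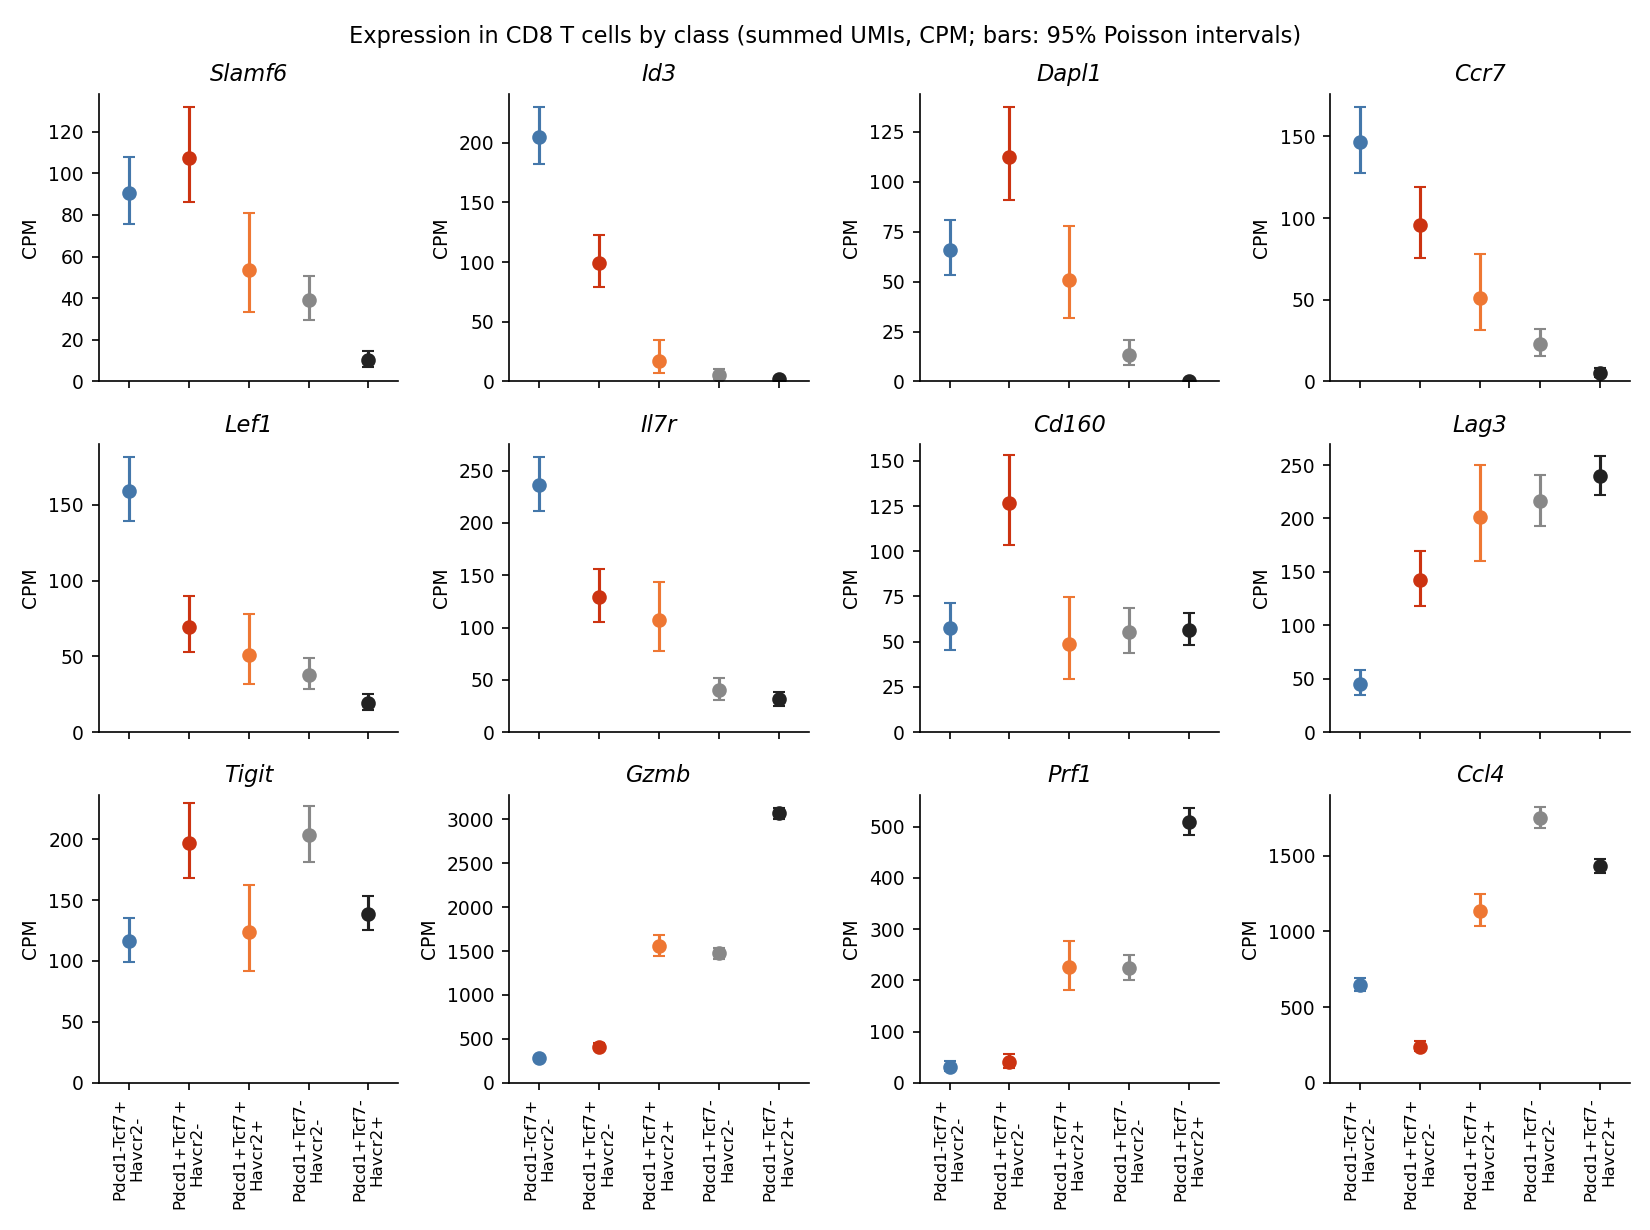
CPM of 12 genes (1 panel per gene, linear axes from 0) in the 5 classes of CD8+ T cells, with points for summed UMIs and bars for 95% Poisson intervals. Id3, Ccr7 and Il7r are highest in Pdcd1-Tcf7+ cells and second in Pdcd1+Tcf7+ cells, and Gzmb and Prf1 are low in both of these classes. Cd160 is highest in Pdcd1+Tcf7+ cells at 127 CPM. Ccl4 is at 240 CPM in Pdcd1+Tcf7+ cells and higher, at 646 CPM, in Pdcd1-Tcf7+ cells.

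The 106 cells were not uniform. Those with at least 2 Tcf7 UMIs (57 cells) had Id3 at 135 CPM (106 to 169) and Gzmb at 254 CPM (214 to 300), whereas the 49 cells with 1 Tcf7 UMI had Id3 at 25.4 CPM (10.2 to 52.3) and Gzmb at 730 CPM (632 to 838). Slamf6 did not follow Tcf7 in this way, at 110 CPM (84.5 to 141) and 102 CPM (67.5 to 147). Among the 22 cells with a Dapl1 UMI, 11 had an Id3 UMI, against 15.5% of the 84 cells without. Such pairs of genes share the depth of their cell. Cells with 1 productive beta chain (75 cells) had Slamf6 at 114 CPM (88.4 to 145), Id3 at 133 CPM (105 to 166), Gzmb at 448 CPM (395 to 505) and Xcl1 at 121 CPM. The 19 cells with at least 2 had Slamf6 at 74.3 CPM (39.6 to 127), Id3 at 22.9 CPM (6.23 to 58.5), Gzmb at 166 CPM (111 to 238) and Xcl1 at 429 CPM. Id3 was thus mostly counted in cells with 1 beta chain.

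Per cell, the 22 genes of the quiescence and progenitor lists were summed against the 16 of the cytotoxic and effector list. In the 106 Pdcd1+Tcf7+ cells the median was 1490 CPM for the former and 5747 CPM for the latter, and the former exceeded the latter in 21 cells, 19.8% (12.7 to 28.7%). In their Pdcd1+Tcf7- partners the medians were 469 and 12331 CPM and this held in 4 of 106 cells, 3.77% (1.04 to 9.38%). Of the 88 Pdcd1+Tcf7+ cells with a Pdcd1-Tcf7+ partner it held in 15, 17.0% (9.87 to 26.6%), and of the partners, with medians of 2623 and 3034 CPM, in 34, 38.6% (28.4 to 49.6%). The intervals did not meet in either comparison, and 102 of the 106 cells had UMIs of both gene groups. Without Xcl1, Ccl5 and Nkg7, a choice made after their values were seen, the shares were 60.4% (50.4 to 69.7%) against 11.3% (5.99 to 18.9%) in the first comparison and 59.1% (48.1 to 69.5%) against 78.4% (68.4 to 86.5%) in the second, where the intervals then overlapped.

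**Figure D3:**
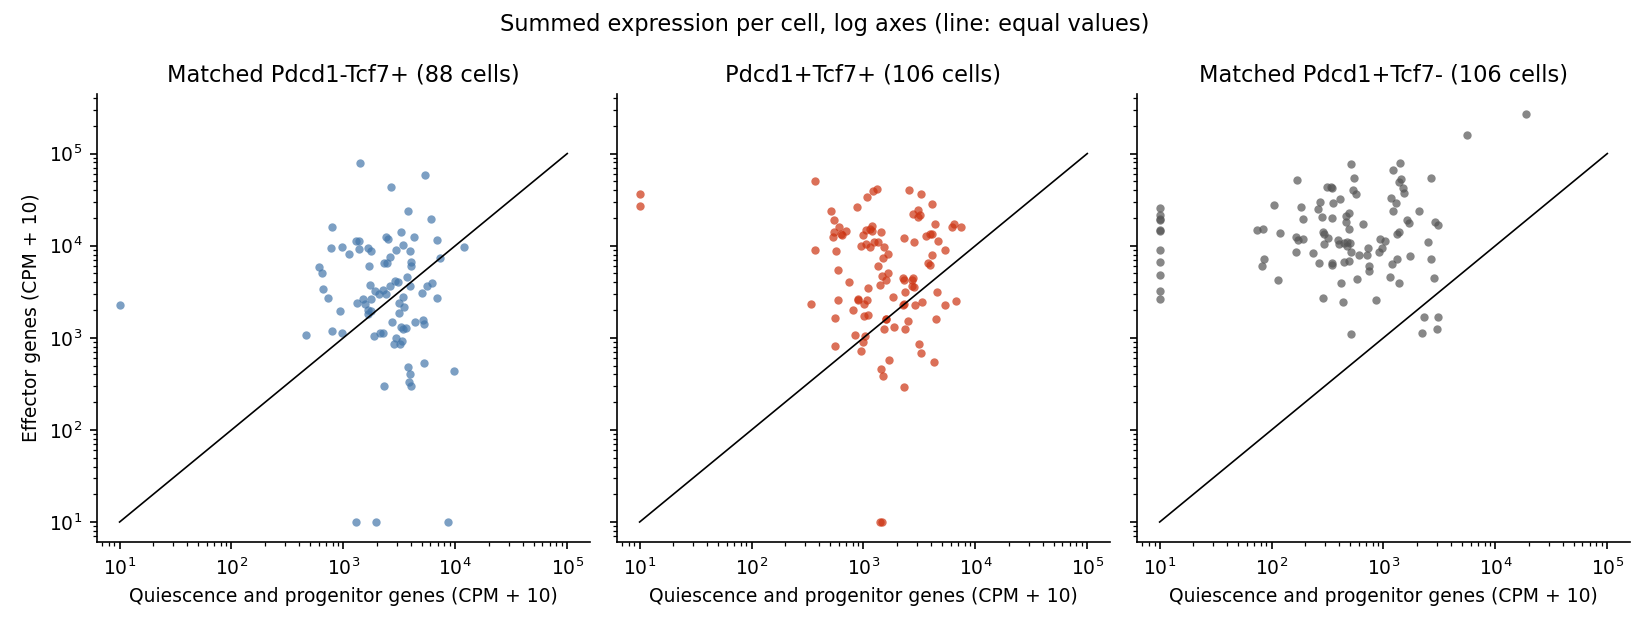
Summed CPM per cell (log axes, 10 added to each value) of 16 effector genes against 22 quiescence and progenitor genes, 1 point per cell, in all 106 Pdcd1+Tcf7+ cells and in the cells paired with them by depth, where 18 of the 106 had no Pdcd1-Tcf7+ partner. Points below the line have more of the quiescence and progenitor genes: 34 of 88 Pdcd1-Tcf7+ cells, 21 of 106 Pdcd1+Tcf7+ cells and 4 of 106 Pdcd1+Tcf7- cells.

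TCR sequences, which the rule did not use, were available for 94 of the 106 Pdcd1+Tcf7+ cells and fell into 92 clonotypes, each a set of cells with the same receptor chains as called by the authors' software. A clone is called expanded where 2 or more of the CD8+ T cells carried it. Expanded clones held 17 of the 94 cells, 18.1% (10.9 to 27.4%). The share was 41.1% (36.2 to 46.1%) of Pdcd1+Tcf7- cells, 52.7% (42.0 to 63.3%) of their depth-matched subset, 7.95% (4.99 to 11.9%) of Pdcd1-Tcf7+ cells and 7.46% (2.47 to 16.6%) of the matched subset. Pdcd1+Tcf7+ cells were thus in expanded clones at a lower share than Pdcd1+Tcf7- cells, with intervals that did not meet. The interval overlapped that of Pdcd1-Tcf7+ cells. With an expanded clone defined from 3 cells the share of Pdcd1+Tcf7+ cells was 4.26%. The comparison of classes above rests on the definition from 2 cells.

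**Figure D4:**
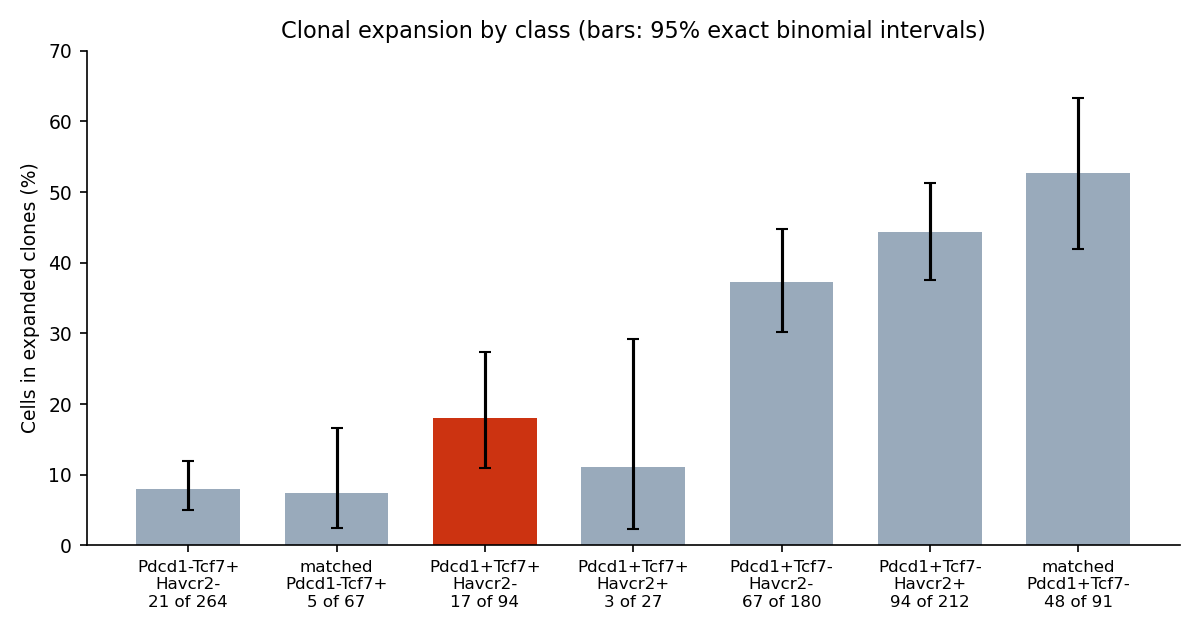
Share of cells with a clonotype that belonged to an expanded clone (%), by class, with 95% exact binomial intervals and the counts under each bar. Pdcd1+Tcf7+ cells (red) stand at 18.1%, above Pdcd1-Tcf7+ cells at 7.95% and below every Pdcd1+Tcf7- bar, the lowest of which is at 37.2%.

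The 17 cells came from 15 expanded clonotypes. Of these, 8 were also found in Pdcd1+Tcf7- cells, 4 of them in cells with a Havcr2 UMI, 3 were also found in Pdcd1-Tcf7+ cells, 1 in both, and 5 in neither class. The share of cells whose clone was also found among Pdcd1+Tcf7- cells was 8.51% (3.75 to 16.1%) for Pdcd1+Tcf7+ cells and 4.55% (2.37 to 7.81%) for Pdcd1-Tcf7+ cells, with intervals that overlapped. The 8 clonotypes that linked Pdcd1+Tcf7+ with Pdcd1+Tcf7- cells are shown by the coding sequence of the third complementarity-determining region of the beta chain (CDR3β), which contacts the antigen peptide, since it identifies the clone in both classes. Lower case marks bases that match the germline V segment at the 5′ end or the J segment at the 3′ end, and capitals mark the bases between, which match neither and hold the D segment and junctional additions. Each clonotype is named by its V and J segments and read 5′ to 3′.
TRBV26 and TRBJ2-5, Havcr2- partner: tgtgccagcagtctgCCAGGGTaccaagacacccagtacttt
TRBV16 and TRBJ2-5, Havcr2- partner: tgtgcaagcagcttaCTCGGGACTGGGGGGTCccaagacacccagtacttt
TRBV3 and TRBJ2-1, Havcr2+ partner: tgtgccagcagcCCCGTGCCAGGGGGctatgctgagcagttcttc
TRBV19 and TRBJ2-1, Havcr2- partner: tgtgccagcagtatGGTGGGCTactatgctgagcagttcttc
TRBV16 and TRBJ2-5, Havcr2+ partner: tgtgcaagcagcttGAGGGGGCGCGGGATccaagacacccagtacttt
TRBV20 and TRBJ1-4, Havcr2+ partner: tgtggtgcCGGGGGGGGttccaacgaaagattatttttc
TRBV19 and TRBJ2-7, Havcr2+ partner: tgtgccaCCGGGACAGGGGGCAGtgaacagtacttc
TRBV20 and TRBJ2-7, Havcr2- partner: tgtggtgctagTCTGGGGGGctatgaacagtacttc

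The lengths of these CDR3β sequences ran from 36 to 51 bases. The first clone was the largest, with 8 CD8+ T cells of which 1 was Pdcd1+Tcf7+ and 1 Pdcd1+Tcf7-. The second had 4 CD8+ T cells and was the 1 clone found in Pdcd1+Tcf7+, Pdcd1+Tcf7- and Pdcd1-Tcf7+ cells alike. Each of the other 6 consisted of 1 Pdcd1+Tcf7+ and 1 Pdcd1+Tcf7- cell. The clone with TRBV19 and TRBJ2-7 carried 2 beta chains, of which 1 is shown. V segment usage over all 94 cells with a beta chain was led by TRBV19 in 15.96% (9.22 to 24.95%) and TRBV16 in 14.9% (8.39 to 23.7%), and the intervals overlapped those of Pdcd1+Tcf7- cells, at 19.8% and 11.6%.

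The tumor of origin could be read for few cells, since a UMI of a B16 or B16–IL-33 hashtag was found in few of them. Of 141 CD8+ T cells with B16 tags and no B16–IL-33 tag, 14 were Pdcd1+Tcf7+, 9.93% (5.54 to 16.1%). Of 21 with the reverse, 0 were Pdcd1+Tcf7+, with an exact binomial interval of 0 to 16.1%. A difference between the tumors in the share of Pdcd1+Tcf7+ cells was therefore not detectable at this depth.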

How the data were processed

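The deposited UMI counts per gene and cell had been made by the authors with 10x 5′ chemistry and Cell Ranger on mm10, version 3.1.0 by the file header and 6.1.1 by the submitters' processing notes. The authors also deposited hashtag counts and TCR contig counts, with a median of 3 UMIs per contig. Of 14035 barcodes, those with at least 200 detected mouse genes and under 5% mitochondrial UMIs were kept. No doublet caller was run, and barcodes with several beta chains or with Cd4 or Foxp3 UMIs were left out as alternatives. UMIs were summed per class and divided by the class total to give CPM. Ratios have exact conditional binomial intervals, CPM exact Poisson intervals and shares Clopper-Pearson intervals. With 1 sample there is no test between conditions and no p-value. Depth matching was 1 to 1 without replacement. The named genes are those of the lists and the 10 highest and 10 lowest ratios past the filter in each comparison, without TCR and immunoglobulin segment genes and the genes of the rule. The members and the lists were chosen with earlier results of these data known. CDR3β sequences are from the deposited contigs, and the scripts were tested on simulated data. Python 3.11.15, numpy 2.4.6, scipy 1.17.1 and pandas 2.3.3 were used. Results for a few genes are not reported here.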

Additional observations from a re-analysis of the deposited data

Results flagged for a closer look

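The gene expression table also counts human genes, which no comparison used. Pdcd1+Tcf7+ cells held 94 UMIs of human genes, 0.0112% of their mouse and human UMIs together, against 0.0123% over all CD8+ T cells. This was flagged because signal appears in features outside the main measurement.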

How the results depend on the processing

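Precision is limited by 1 pool, 106 cells and few UMIs of most genes. Without depth matching, 832 genes were higher and 958 lower against Pdcd1+Tcf7- cells, and 694 and 431 against Pdcd1-Tcf7+ cells, with more cells and more genes past the filter. With a filter of 20 UMIs the counts were 866 and 723, and 738 and 462. With 100 UMIs they were 116 and 131, and 74 and 27. With at most 2500 detected genes, 249 were higher against Pdcd1+Tcf7- cells. At least 2 Tcf7 UMIs left 57 cells and 170 genes higher against Pdcd1-Tcf7+ cells. Expanded clones of 3 cells or more held 4.26% of Pdcd1+Tcf7+ cells, against 18.1% for clones of 2 cells or more. The classes are compared here only with the latter definition.

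Of the named genes past the fold against Pdcd1+Tcf7- cells, 70 to 72 kept their direction in each alternative (of 72, or of 71 with at least 2 Tcf7 UMIs and with at most 2500 genes). Against Pdcd1-Tcf7+ cells it was 46 of 54 without depth matching and 52 to 54 otherwise, while 31 were still past the fold without depth matching, 35 with matching on detected genes, 41 with at least 2 Tcf7 UMIs and 48 to 53 otherwise. The log2 ratios that turned were, against Pdcd1+Tcf7- cells, Lyz2 at 0.95 and Cd74 at -0.61 with partners without Havcr2, Cdk1 at 0.32 with matching on detected genes, Cd74 at -0.93 with at most 2500 genes and -0.32 with the mean of each cell's CPM, and Areg at 0.44 without cells with Cd4 or Foxp3. Against Pdcd1-Tcf7+ cells without depth matching they were Xcl1 at 0.11, Dapl1 at 0.77, Ube2c at 1.84, Nr4a3 at 0.025, Ccr2 at -0.031, Ccl5 at -0.57, Ifit3 at -0.27 and Ifit1 at -0.40. Also against these cells, Cd74 was at 1.41 with at most 2500 genes, Dapl1 at 0.34 without cells with 2 or more beta chains and at 0.084 without Cd4 or Foxp3, and Ube2c at 0.76 and Klre1 at 0.026 with at least 2 Tcf7 UMIs. In 2 alternatives chosen after seeing the data, cells with exactly 1 beta chain gave Areg at 0.38 against Pdcd1+Tcf7- cells and Dapl1 at 1.23 and Cd74 at 1.48 against Pdcd1-Tcf7+ cells. Without cells with myeloid UMIs, Apoe was at 1.58 and Lyz2 at 1.00 against Pdcd1+Tcf7- cells, and Ccl6 at -0.84 and Cd74 at 1.81 against Pdcd1-Tcf7+ cells. The cause was not tested. No paired analysis was possible because the series holds 1 pool and no replicate numbers.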
